A study of Mus musculus with 4 samples.

Results

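The B cells described here are 103 cell barcodes of 26014 kept barcodes from brains carrying GL261 tumours, a mouse glioma line grown in the brain. They were chosen from measured values. Barcodes were kept if 200 or more genes were detected and mitochondrial genes gave no more than 10% of the unique molecular identifiers (UMIs, the counted RNA molecules). A B cell had at least 4 UMIs summed over Cd79a, Cd79b and Ms4a1, at most 1 over Cd3d, Cd3e and Cd3g, at most 1 over Csf1r and Cd68, and 0 of Siglech. These exclusions set aside T cells, macrophages and microglia, and plasmacytoid dendritic cells. The study sequenced live CD45.2+ immune cells by droplet single-cell RNA-seq from 4 groups, with 1 library in each. The groups were IFNaR-/- mice (KO, deficient for the type I interferon receptor) given anti-PD1, WT mice given anti-PD1, KO mice left untreated, and WT mice left untreated. Anti-PD1, an antibody against the checkpoint receptor PD-1, was given at 200 ug per mouse on days 7, 11, 15 and 19, and those mice were sorted on day 25. Untreated mice were sorted on day 20. Cell suspensions were pooled before sorting, and the number of mice in a pool, their age and the receptor subunit deleted are not given in the sources used here. In the anti-PD1 sort CD3+ and CD3- cells were mixed in equal parts. Each library is therefore 1 sample of its group, no difference below has a replicate check, and no p-value is given. Intervals are exact 95% intervals and cover counting error only.

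A B cell carries a membrane antibody, the B cell receptor, which signals through the CD79A and CD79B chains. MS4A1 is the surface protein CD20. The antibody has a heavy chain, first made as IgM and IgD and later switched to IgG, IgA or IgE, and a light chain that is either kappa or lambda. Type I interferons signal through the IFNAR1 and IFNAR2 chains to a transcription factor complex that includes STAT2 and IRF9 and switches on a broad set of interferon-stimulated genes in nearly every cell type, B cells included. B cells also present antigen on MHC class II, and some mature into plasma cells that secrete antibody.

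The label of the barcodes was checked against genes that lie mostly outside the rule. Genes with the highest ratios of B cells over all other kept barcodes, taking the smaller ratio of the 2 untreated libraries, included, beside the rule's own Ms4a1 and Cd79a, Ighg3 (721-fold), Ebf1 (311-fold), Vpreb3 (290-fold), Pax5 (282-fold), Fcmr (225-fold), Ighd (148-fold) and Fcer2a (147-fold). Ebf1 and Pax5 encode transcription factors of B cell commitment, Fcmr the IgM Fc receptor and Fcer2a the low-affinity IgE receptor CD23. Of 4513 genes measured, 278 (6.16%) were at least 2-fold higher in B cells of both untreated libraries, a description only, because the barcodes were chosen on expression. The summed T cell list stood at 68.9 CPM (the UMIs of a gene or list scaled to an equal total of UMIs in each set of cells) in untreated KO B cells and 92.2 CPM in untreated WT B cells, with 8 of 14 and 1 of 14 genes at 0. The monocyte and macrophage list stood at 608 CPM in KO and 1025 CPM in WT B cells, with 11 of 18 genes at 0 in KO and none at 0 in WT. In all other barcodes that list stood at 14362 CPM in KO and 12794 CPM in WT. The T cell list holds Cd3d, Cd3e and Cd3g, and the monocyte and macrophage list holds Csf1r and Cd68. The rule itself kept these genes low, so the low sums of both lists are partly fixed by it. The hemoglobin and erythroid list was at 0 in both. Some lists stood higher in KO B cells than in all other KO barcodes. These were conventional (1805 against 759 CPM) and plasmacytoid dendritic cells (790 against 681 CPM), basophils and mast cells (326 against 276 CPM) and B precursors (533 against 216 CPM). In WT all of these stood lower in B cells. The tumour and glia list was slightly higher in B cells of both genotypes, and the NK, microglia and neutrophil lists were lower in both. No B cell barcode sequence occurred in a second library.

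The threshold of 4 marker UMIs cut through few barcodes. In the untreated libraries 1 KO and 1 WT barcode sat at 4 marker UMIs, none that met the exclusions sat at 3, and 18 of 19 KO and 70 of 77 WT barcodes held 10 or more. Of all kept barcodes with at least 4 marker UMIs, 3 of 22 in KO and 13 of 100 in WT were over the limit for Csf1r and Cd68. Over the limit for Cd3 genes were 11 of the WT barcodes, and 1 KO and 7 WT barcodes held Siglech. A barcode can fail more than 1 limit. Another 0 KO and 11 WT barcodes met the B cell rule but were not kept. Untreated KO B cells held 159563 UMIs in all, with a median of 6112 per cell (2744 to 29996). Untreated WT B cells held 564177 UMIs, with a median of 5962 per cell (1289 to 28278). Their median mitochondrial share was 6.26% in KO and 5.26% in WT.

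B cells were rare in every library. They were 2 of 8476 kept barcodes in the KO anti-PD1 library (0.0236%, interval 0.00286 to 0.0852%), 5 of 9464 in the WT anti-PD1 library (0.0528%, 0.0172 to 0.123%), 19 of 2810 in the untreated KO library (0.676%, 0.408 to 1.05%) and 77 of 5264 in the untreated WT library (1.46%, 1.16 to 1.82%). The counting intervals of the untreated KO and WT libraries did not overlap, and the log2 ratio of KO over WT was -1.11. With no cell filter that ratio was -1.37, from 19 KO and 88 WT B cells. Both anti-PD1 libraries had a lower share than both untreated libraries. Treatment, day of sorting, the CD3 mixing and the Cell Ranger version that counted the reads all differ between those pairs and cannot be told apart. The share of barcodes over the mitochondrial limit also differed, at 3.29% in KO and 0.693% in WT anti-PD1 libraries against 24.2% in KO and 21.0% in WT untreated libraries.

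**Figure D1:**
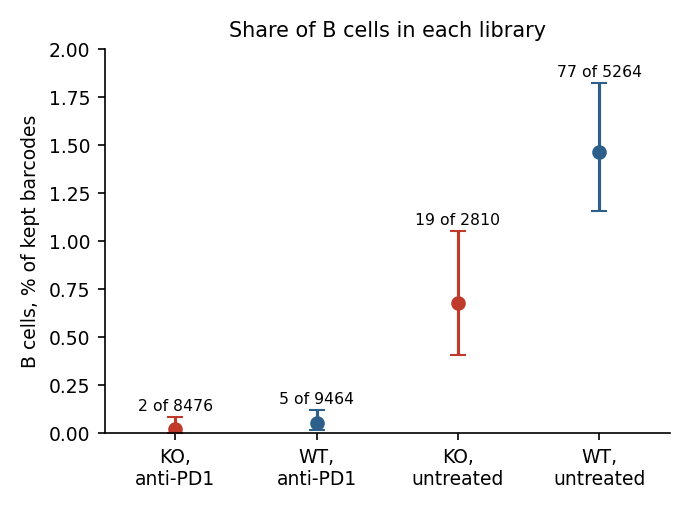
B cells as a percentage of kept barcodes (y axis) in each of the 4 libraries (x axis), with points for the share, bars for the exact 95% binomial interval and the counts above each bar. The untreated KO share of 0.676% lies below the untreated WT share of 1.46%, and both anti-PD1 libraries lie below 0.06%.

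The 19 untreated KO barcodes were not of a single kind. In 6 of them the leading heavy-chain gene was Ighg3, which encodes the constant region of IgG3 (chromosome 12, 113356224 to 113361232, minus strand, GRCm38). Their Ighg3 UMIs were 70, 27, 61, 43, 35 and 50. All 6 had 0 UMIs of Ighm, Ighd and Igkc, the kappa constant gene, and 77 to 190 UMIs of the lambda constant genes (median 123.5). Their Iglc2 UMIs were 98, 39, 82, 50, 53 and 72, their Iglc3 UMIs 69, 24, 65, 35, 30 and 49, and their Iglc1 UMIs 23, 14, 21, 19, 16 and 22. The order Iglc2 over Iglc3 over Iglc1 was thus the same in all 6 cells. It was not particular to them. Summed levels had that order in the other KO B cells (441, 270 and 201 CPM) and in WT B cells (881, 658 and 567 CPM). Reads of Iglc2 and Iglc3 may be split between them, since their annotated transcripts are 94.9% identical over 452 aligned bases, against 67.3% between Iglc1 and Iglc2. No untreated WT B cell was led by Ighg3, 0 of 77, which allows a share of up to 3.90% at 3 counts. The highest Ighg3 count in a WT B cell was 7 UMIs, and WT B cells held 22 Ighg3 UMIs in 7 cells. The 6 barcode sequences differed from each other at 9 to 14 of their 16 bases.

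These 6 cells also shared genes that were not used to pick them, all named after their values were seen. Mki67, a marker of cycling cells, had 6, 4, 7, 4, 2 and 2 UMIs in them and was found in 1 of the 10 KO B cells that were of neither this nor another distinct kind. Hmgb2, a chromatin protein abundant in cycling cells, stood at 3248 CPM in the 6 and 104 CPM in the 10. Crip1 stood at 10607 against 607 CPM, the intermediate filament gene Vim at 3580 against 355 CPM, S100a10 at 4342 against 222 CPM and the nuclear lamina gene Lmna at 1326 against 59.2 CPM. Il10, which encodes an immunoregulatory cytokine, was present in all 6, with 3 UMIs in the first and 1 in each of the others, and was at 0 in the other 13 KO B cells and in all 77 WT B cells. Zbtb32, a transcriptional repressor listed here with B1 cell genes, was present in all 6, with 1 to 6 UMIs. Of the other B1 genes, Ahnak stood at 1160 CPM in the 6 against 355 CPM in the 10, whereas Cd5 was at 0 in both and Bhlhe41 was at 33.1 against 207 CPM. Of 24 B cell identity genes, 20 stood lower in the 6 than in the 10, and 7 of the 24 were at 0 in the 6, among them Cd22, Fcer2a, Fcmr and Cr2. The other 4 were higher in the 6, among them Cd24a (431 against 193 CPM), Cd81 (199 against 74.0 CPM) and Blk (133 against 74.0 CPM). These contrasts rest on few UMIs. In the 10, Cr2 had 7, Fcer2a 11, Fcmr 15 and Cd22 23 UMIs. Blk had 4 UMIs in the 6 and 5 in the 10, and Cd81 had 6 and 5. The transcription factor gene Klf2 was present in all 6 at 928 CPM, whereas Pou2af1, Bach2 and Ikzf3 were at 0. Pax5 had 4 UMIs in 3 of them and Ebf1 8 UMIs in 3. Other-type markers in the 6 ranged from 0 to 1 UMI for the T cell list and 0 to 3 UMIs for the monocyte and macrophage list.

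Another 3 untreated KO barcodes were led by genes of other cells or stages. The first held Ccl22 (100 UMIs), Ccl17 (95), Fscn1 (79) and Ccr7 (46), genes of mature dendritic cells, with 238 UMIs of the conventional dendritic cell list. It had no immunoglobulin UMI, and met the rule through 4 Cd79b UMIs with Cd79a and Ms4a1 at 0, so its genes go against the label of B cell. The second had 29996 UMIs, with Vpreb1 at 21 and Igll1 at 22 UMIs, which encode the surrogate light chain of B cell precursors. It held 61 Ighm UMIs, no light-chain UMI, 24 of Myb, 38 of Ebf1 and 23 of Pax5, and 317 UMIs of the cell cycle list. The third held Ccl3 (141 UMIs), Il6 (60), Cxcl2 (53) and Il1b (24) beside 30 Ighm and 27 kappa UMIs, with 52 UMIs of the basophil and mast cell list. The choice of all 9 was made after their values were seen. Without the 9, the log2 ratio of the B cell share was -2.04. The 9 were taken from KO alone, although some WT barcodes also held genes of other cells. A WT barcode held 86 UMIs of Ccl3, 13 of Il6, 5 of Cxcl2 and 63 of the basophil and mast cell list, another held 37 UMIs of the NK cell list and yet another 76 of the monocyte and macrophage list. Values are therefore also given without the 9 and without every barcode of either genotype that had 20 or more UMIs of the list of another cell type. This setting is called even-handed here for that limit only, since the 9 still come from KO alone. It left 8 KO and 69 WT B cells and was also chosen after seeing the data. The log2 ratio of the share was then -2.20.

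In the remaining 10 untreated KO B cells the median receptor chain UMIs were near those of most WT B cells. Ighm was present in 9 of the 10 with a median of 21 UMIs (0 to 150), and the tenth was led by Ighg2c with 8 UMIs. All 10 had kappa UMIs (5 to 78, median 26.5), and their lambda UMIs ran from 0 to 60 with a median of 6. In the 74 WT B cells with under 50 Jchain UMIs the median was 18 for Ighm (0 to 159), 28 for kappa (0 to 178) and 8 for lambda (0 to 178). The 10 KO values lay within the WT range for all 3 measures. Those ranges start at 0, and the 10 are what was left after the Ighg3-led cells were set apart, so this does not show a likeness. Over all untreated cells the leading heavy chain was Ighm in 11 of 19 KO and 66 of 77 WT cells, and the IgG2 genes led in 1 KO cell (Ighg2c) and in 6 WT cells (4 Ighg2b and 2 Ighg2c). Lambda outnumbered kappa in 6 of 19 KO cells (31.6%, 12.6 to 56.6%) and in 7 of 77 WT cells (9.09%, 3.73 to 17.8%). All 6 KO lambda cells were the Ighg3-led ones, whereas all 7 WT lambda cells were led by Ighm. Ighm was also found in 18.7% of untreated KO and 28.0% of untreated WT T cells, and Igkc in 0.984% and 12.7% of them, at median depths of 9607 UMIs in KO and 8936 UMIs in WT T cells.

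**Figure D2:**
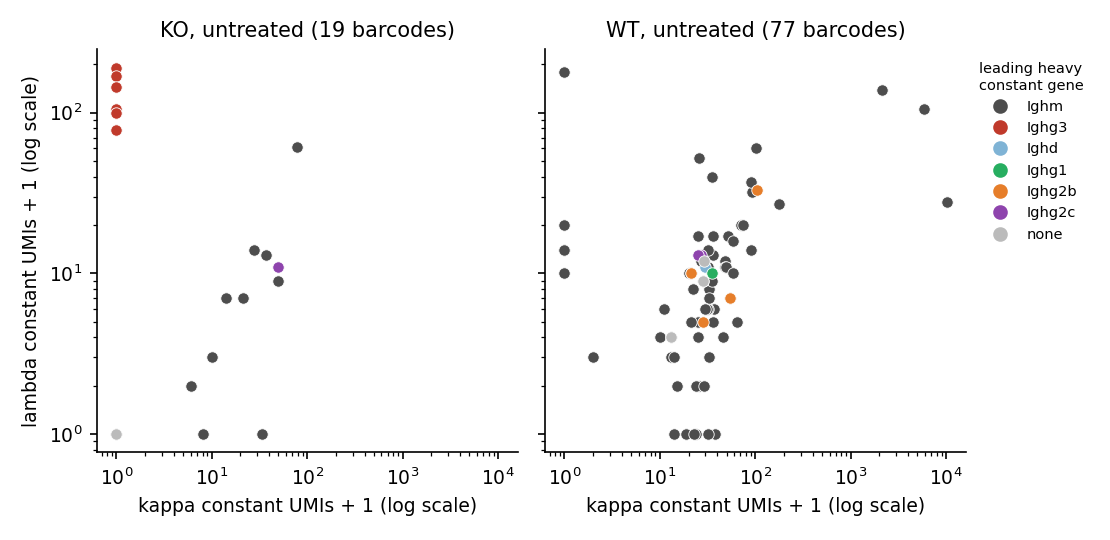
Kappa constant UMIs (x axis) against lambda constant UMIs (y axis) in single untreated B cells, each with 1 added on log axes, KO on the left and WT on the right, coloured by the leading heavy constant gene. The 6 Ighg3-led KO cells stand at 0 kappa and 77 to 190 lambda UMIs, and 3 WT cells stand above 2000 kappa UMIs.

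Cells rich in antibody transcripts were counted with Jchain, which encodes the joining chain of IgM and IgA polymers and is high in plasma cells. No untreated KO B cell had 50 or more Jchain UMIs, against 3 of 77 WT B cells, with 1495, 584 and 167. These 3 WT cells held 6500, 4376 and 1345 Ighm UMIs and 10126, 5817 and 2151 Igkc UMIs, and had 0 UMIs of Pax5, Ebf1 and Ms4a1. They carried 12221 of the 14040 WT Ighm UMIs and 18094 of the 20663 Igkc UMIs. The summed levels of Ighm (2682 CPM in KO and 24886 CPM in WT) and Igkc (2043 CPM in KO and 36625 CPM in WT) therefore rest largely on those 3 cells. Over all kept barcodes, whatever their markers, 0 in the untreated KO library and 9 in the untreated WT library had 50 or more Jchain UMIs. Of those 9, 5 were led by Ighm and 4 by Igha, and 6 failed the B cell rule.

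Interferon-stimulated genes were lower in untreated KO B cells than in untreated WT B cells. Of 98 genes listed, 64 had at least 20 UMIs over both sets, and 59 of these were lower in KO. At least 2-fold lower were 39 of the 64, where 7.00% of all 4513 genes were, and none was at least 2-fold higher. Their median log2 ratio of KO over WT was -1.34 (with 0.5 counts added to each sum), against 0.19 over all genes. Giving the 6 genes at 0 in KO (Ifi213, Trim30d, Slfn8, Isg20, Ifit2 and Rtp4) their bound at 3 counts put the median at -1.24. With edgeR's TMM scaling the median of all genes was 0.02, a shift of over 0.1, and 404 genes were at least 2-fold lower and 429 at least 2-fold higher, against 316 and 626 (13.9%) without it. Without the 9 KO barcodes set apart above, 56 of 62 measured members were lower, with a median of -1.01 against 0.18 over all genes. At least 2-fold lower were 32 of the 62, where 389 of all 3980 genes were. In the even-handed setting 47 of 56 were lower, with a median of -1.06 against 0.17 over all genes. In T cells of the same libraries the median was -1.25, with 58 of 95 members at least 2-fold lower where 2.40% of all genes were. In myeloid cells it was -2.16, with 82 of 96 where 5.09% of all genes were. These sets come from the same 2 samples and are not a further check.

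The member with the most WT UMIs was Ifi27l2a, an interferon alpha-inducible gene (chromosome 12, 103442167 to 103443680). It had 9 UMIs in 1 KO B cell, 1 UMI in a second and 0 in the other 17. In WT B cells it ran from 0 to 83 UMIs with a median of 8 and was found in 72 of 77 cells. The KO cell with 9 UMIs lay above the WT median, and the summed level of Ifi27l2a was 62.7 CPM in KO and 1537 CPM in WT, 24.5-fold lower in KO (13.3 to 51.3). It stood at 148 CPM in KO without the 9 barcodes, a log2 ratio of -3.31. After each cell was thinned to 1000 UMIs, 1 of 19 KO and 49 of 77 WT cells still held an Ifi27l2a UMI. In T cells of the same libraries it was found in 11.8% in KO and 82.3% in WT. Isg15, a ubiquitin-like modifier, stood at 18.8 CPM in KO and 177 CPM in WT B cells, 9.43-fold lower (3.13 to 46.5). It was found in 3 of 19 KO cells, never above 1 UMI, and in 25 of 77 WT cells with up to 49 UMIs, so a single WT cell held 49 of the 100 WT UMIs.

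Other members split by how far they differed. The membrane restriction factor Ifitm3 stood at 6.27 CPM in KO and 140 CPM in WT, Slfn5 at 12.5 against 184 CPM, and Bst2 (tetherin) at 43.9 against 119 CPM. Single WT cells held 35 of the 79 Ifitm3 UMIs and 44 of the 104 Slfn5 UMIs. The regulator Irf7, which amplifies type I interferon production, stood at 6.27 CPM in KO and 65.6 CPM in WT. The ubiquitin ligases and sensors Trim30a (31.3 against 225 CPM), Rnf213 (25.1 against 179 CPM) and Ddx58, which encodes RIG-I (6.27 against 74.4 CPM), were also at least 2-fold lower in KO. The difference was smaller for Ly6e (978 CPM in KO and 1473 CPM in WT, 1.51-fold lower), and without the 9 barcodes Ly6e stood at 1437 CPM in KO, close to WT. Ly6a, which encodes Sca-1, stood at 420 CPM in KO and 1101 CPM in WT, a log2 ratio of -1.38 that was -0.37 without the 9 barcodes. Cd274 (PD-L1, 150 CPM in KO and 92.2 CPM in WT) and Socs1, a feedback inhibitor (87.7 and 46.1 CPM), were higher in KO, with counting intervals that included equal levels. The log2 ratio without the 9 barcodes was 1.10 for Cd274 and -0.34 for Socs1.

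**Figure D3:**
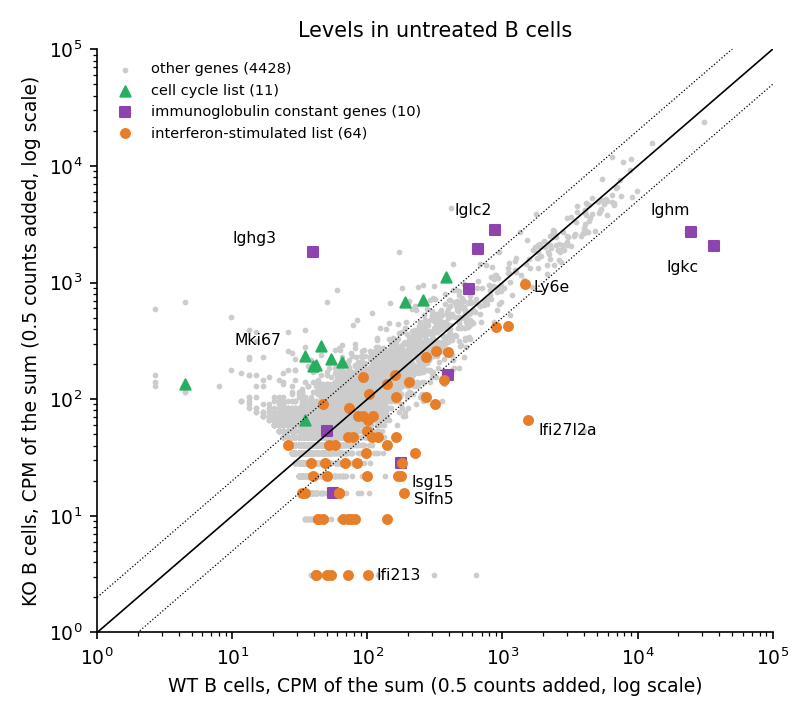
Level of each of the 4513 measured genes in untreated KO B cells (y axis) and untreated WT B cells (x axis), in CPM of the summed counts with 0.5 counts added, on log axes, with a solid line for equal levels and dotted lines for 2-fold. Of the 64 interferon-stimulated genes 59 lie below the solid line, with Ifi27l2a at 62.7 CPM in KO against 1537 CPM in WT, and Ighg3 lies above.

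The promoters of the interferon-stimulated members are shown because the complex that holds STAT2 and IRF9 binds repeats of GAAA. The motif GAAANNGAAA was searched on both strands, with overlapping matches allowed, in RefSeq promoters of GRCm38.p6 from 250 bases before to 50 bases after each annotated start. Of the 39 members at least 2-fold lower in KO, 34 had a promoter in the table, and 20 (58.8%) held the motif. Of the 25 members that were not, 20 had a promoter and 5 (25.0%) held it. It was held by 3.99% of all 27025 genes listed there and by 3.44% of all 32851 promoters. A match describes letters and not a bound site. The 250 bases before the start are given, 5′ to 3′ on the gene's strand, for the 4 members with the most WT UMIs among those with 1 listed promoter, a match wholly before the start and no overlap with the annotated gene. Capitals mark the matches. The matches of Isg15 began 78, 72 and 66 bases before the start and overlapped each other, those of Bst2 130 and 124 bases before it and overlapping, that of Stat2 222 bases and that of Trim30d 41 bases before it, both on the opposite strand. The printed stretch of Isg15 lies at chr4:156200819-156201068 (minus strand), that of Bst2 at chr8:71537473-71537722 (minus), that of Stat2 at chr10:128270248-128270497 (plus) and that of Trim30d at chr7:104507850-104508099 (minus).
Isg15: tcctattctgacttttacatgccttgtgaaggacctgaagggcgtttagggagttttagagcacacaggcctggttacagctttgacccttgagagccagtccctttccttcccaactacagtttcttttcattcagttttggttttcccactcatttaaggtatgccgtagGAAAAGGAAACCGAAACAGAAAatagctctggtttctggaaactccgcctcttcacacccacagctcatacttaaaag
Bst2: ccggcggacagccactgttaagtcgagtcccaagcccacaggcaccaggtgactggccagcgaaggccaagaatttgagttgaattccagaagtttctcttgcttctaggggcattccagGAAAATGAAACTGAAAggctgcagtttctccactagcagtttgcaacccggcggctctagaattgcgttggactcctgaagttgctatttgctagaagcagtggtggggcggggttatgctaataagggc
Stat2: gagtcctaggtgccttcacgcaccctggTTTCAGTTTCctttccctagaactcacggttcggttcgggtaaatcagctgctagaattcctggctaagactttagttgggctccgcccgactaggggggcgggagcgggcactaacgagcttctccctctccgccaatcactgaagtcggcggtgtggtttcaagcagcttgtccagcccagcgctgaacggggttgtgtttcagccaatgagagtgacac
Trim30d: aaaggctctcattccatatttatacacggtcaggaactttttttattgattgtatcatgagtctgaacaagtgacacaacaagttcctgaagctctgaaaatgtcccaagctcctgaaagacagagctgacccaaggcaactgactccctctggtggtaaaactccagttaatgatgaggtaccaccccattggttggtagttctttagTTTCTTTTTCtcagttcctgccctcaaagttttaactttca
Of these genes, Stat2 stood at 31.3 CPM in KO and 97.5 CPM in WT B cells, a log2 ratio of -1.51 that was -0.27 without the 9 barcodes. Trim30d was at 0 UMIs in KO, against 40 UMIs in 23 WT cells, at least 3.77-fold lower.

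Per cell, interferon-stimulated UMIs made up 0.103 to 1.06% of all UMIs in untreated KO B cells (median 0.471%) and 0.248 to 5.23% in untreated WT B cells (median 0.998%). Of 19 KO cells 18 lay below the WT median, and 32 of 77 WT cells lay above the highest KO cell. The medians within KO were 0.402% in the 6 Ighg3-led cells (0.317 to 0.471%) and 0.581% in the 10 other cells (0.446 to 1.06%). The lowest KO value belonged to the Vpreb1 and Igll1 barcode and the lowest WT value to a Jchain-rich cell. Among WT B cells 3 stood apart at 4.53, 5.11 and 5.23%. The cell at 4.53% held the 49 Isg15 UMIs and 76 UMIs of the monocyte and macrophage list, against 4 and 18 UMIs of that list in the cells at 5.11 and 5.23%. Ambient RNA from other cells was gauged with myeloid genes: Lyz2 in B cells stood at 0.204% of its myeloid level in KO and 0.945% in WT, Apoe at 6.50% in KO and 6.76% in WT, and Isg15 at 15.4% in KO and 12.7% in WT. The part of ambient RNA in these levels was not tested.

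**Figure D4:**
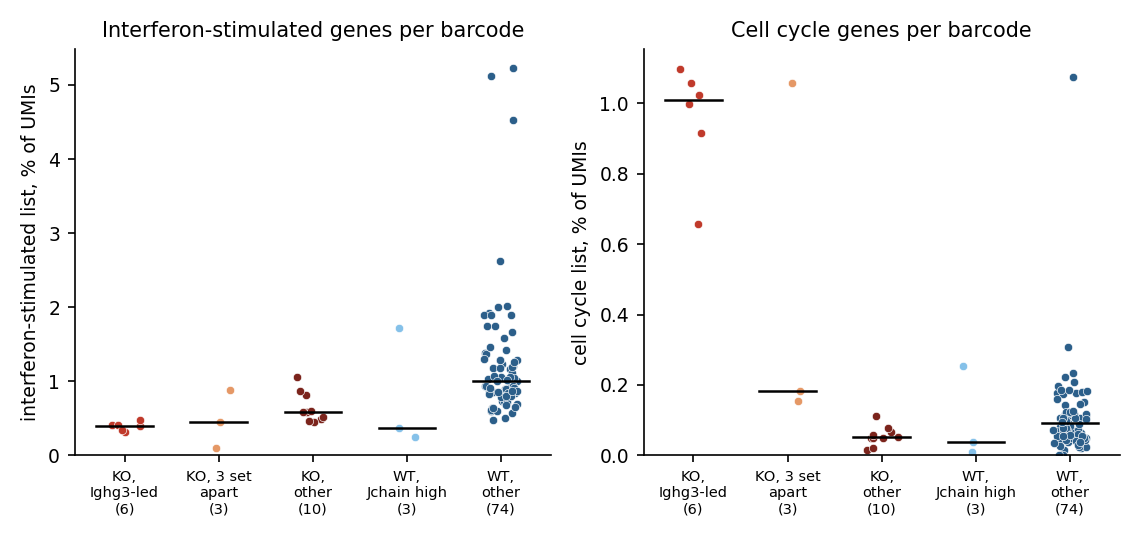
Share of UMIs per untreated B cell from the interferon-stimulated list (left) and the cell cycle list (right), by kind of barcode, with KO kinds left of WT kinds, numbers of cells in brackets and black bars for medians. KO cells lie at or below 1.06% on the left, where WT cells reach 5.23%, and on the right the 6 Ighg3-led cells lie between 0.656 and 1.10%.

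The genes of the receptor and its signalling chain lay close to all genes as a list. Ifnar1 stood at 119 CPM in KO and 62.0 CPM in WT B cells, and Ifnar2 at 25.1 and 24.8 CPM. These counts do not check the genotype, since the deleted stretch is not given. Of 19 measured receptor, JAK and STAT genes 6 were lower and 13 higher in KO, with a median of 0.30 against 0.19 over all genes. At least 2-fold lower was 1 of them, and none was at least 2-fold higher. The lower ones included Stat2 and Irf9, which are themselves on the interferon-stimulated list.

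MHC class I genes were lower by a smaller margin. Of 19 measured members 13 were lower in KO, with a median log2 ratio of -0.49 that was -0.32 without the 9 barcodes and -0.84 in the even-handed setting. Over all genes these medians were 0.19, 0.18 and 0.17. Only 1 of the 19, H2-T23, was at least 2-fold lower, a share below the 7.00% of all genes. H2-K1, a classical class I heavy chain, stood at 1172 CPM in KO and 2141 CPM in WT (1.83-fold lower, 1.56 to 2.14), a log2 ratio of -0.87 that was -0.38 without the 9 barcodes. B2m, the shared light chain of class I, stood at 1949 and 2738 CPM, and H2-T23, which encodes Qa-1, was 2.28-fold lower (1.61 to 3.32) at 226 CPM in KO against 514 CPM in WT. The peptide transporter Tap1 was 2.05-fold lower before 0.5 counts were added, and was not called with them. Its partner Tap2 stood at 150 CPM in KO and 106 CPM in WT. Without the 9 barcodes the log2 ratio was -1.08 for H2-T23, -0.80 for Tap1 and 1.00 for Tap2.

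MHC class II genes were lower in the sum of all KO B cells, and near the WT level in the 10 remaining cells. Of 13 measured members 12 were lower in KO, with a median of -0.76. The invariant chain gene Cd74 stood at 6085 CPM in KO and 9976 CPM in WT, and the class II chain gene H2-Aa at 2049 and 3208 CPM. Without the 9 barcodes the median was 0.046, with 5 members lower and 8 higher, and in the even-handed setting it was -0.12, with 8 of 13 lower. Leaving out only the 6 Ighg3-led barcodes changed the median little, to -0.73 with 11 of 13 lower. Leaving out only the 3 other barcodes put it at -0.21, with 10 of 13 lower. For H2-Aa the Ighg3-led cells stood at 1193 CPM, against 3984 CPM in the 10 others. H2-Ob, a chain that restrains peptide loading in B cells, and Ciita, the class II master regulator, were at 0 in the Ighg3-led cells and present in 10 and 6 of the 10 others.

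Cell cycle genes also depended on the barcodes set apart. Of 11 measured members all 11 were higher in KO, 10 at least 2-fold where 13.9% of all genes were, with a median of 2.04. Mki67 stood at 232 CPM in KO and 33.7 CPM in WT. Without the Ighg3-led cells the median was 1.54, and without all 9 barcodes it was -0.71, with 9 of 10 members lower. In the even-handed setting it was -1.96, with 7 of 8 lower. Leaving out the 9 takes out the Ighg3-led cells and the Vpreb1 and Igll1 barcode, which had the highest cell cycle shares in KO. No cell cycle limit was set for WT cells, so the lower KO medians are partly fixed by this choice. None of the 20 members was at least 2-fold higher in T cells (2.30% of all genes) or in myeloid cells (3.48%), where the medians were 0.21 and -0.56. The cell cycle list made up 0.656 to 1.10% of UMIs in the 6 Ighg3-led cells, 0.0157 to 0.111% in the 10 others and 0 to 1.07% in WT cells. A single WT cell exceeded 0.5%.

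Genes of naive and follicular B cells had a median of -0.99, with 8 of 10 lower in KO, and of -0.11 without the 9 barcodes (0.058 in the even-handed setting, with 3 of 10 lower). Ccr7, which draws lymphocytes to lymph nodes, stood at 583 CPM in KO against 227 CPM in WT, a log2 ratio of 1.36 with 46 of the 93 KO UMIs in the Ccl22 barcode, and of 1.43 without the 9 barcodes. Ighd, which encodes IgD, had a UMI in 6 of 19 KO and 50 of 77 WT cells. After thinning to 1000 UMIs per cell it was found in 3 of 19 KO (15.8%, 3.38 to 39.6%) and 21 of 77 WT cells (27.3%, 17.7 to 38.6%), so the intervals overlapped around a difference of -11.5 percentage points. The share of T cells with an Ighd UMI was 0.328% in KO and 1.23% in WT.

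B cell identity genes as a list had a median of -0.40, with 22 of 24 lower and 3 at least 2-fold, where 7.00% of all genes were. These 3 were Fcmr (94.0 CPM in KO and 354 CPM in WT), Fcer2a (68.9 and 183 CPM) and Ly6d (526 and 1143 CPM). Without the 9 barcodes none of the 3 was 2-fold lower, with log2 ratios of -0.63, -0.11 and -0.40. The list median was then 0.25, with 10 lower and 14 higher, and it was 0.022 in the even-handed setting. Transcription factors had a median of -0.03 over 16 measured members. Pax5 stood at 345 CPM in KO and 264 CPM in WT and Ebf1 at 671 and 759 CPM. Spib was 2.73-fold lower (1.46 to 5.62) and the plasma cell factor Xbp1 2.92-fold lower in KO (1.47 to 6.59), with 64 of the 93 WT Xbp1 UMIs in the 3 Jchain-rich cells. Without the 9 barcodes the log2 ratio of Spib was -0.58 and that of Xbp1 -1.31, with the 3 Jchain-rich WT cells still included. Without those 3 cells, and with all KO barcodes, Xbp1 stood at 56.4 CPM in KO and 58.4 CPM in WT, a log2 ratio of 0.002.

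**Figure D5:**
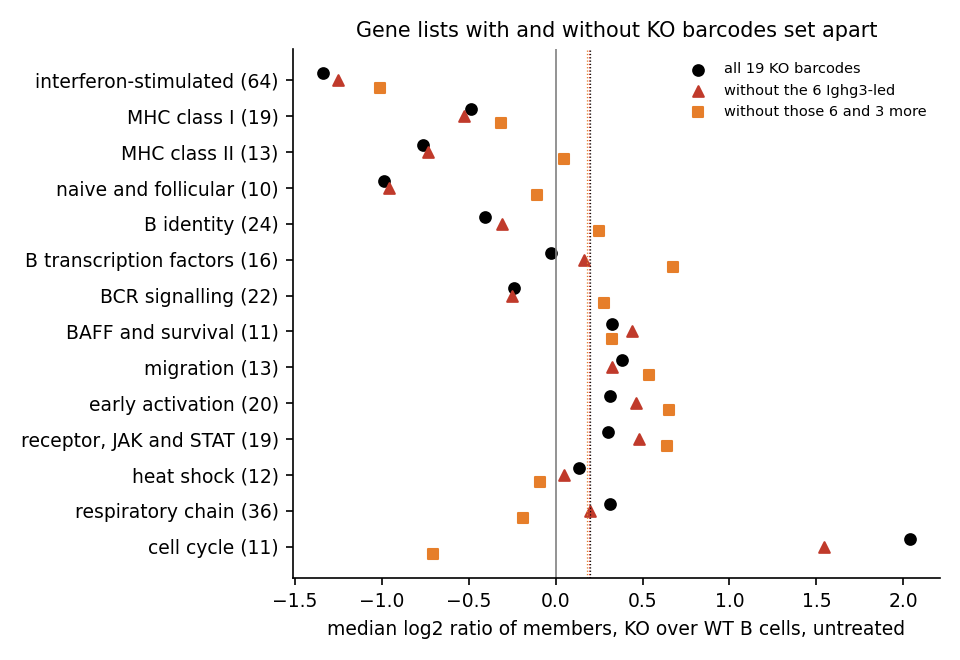
Median log2 ratio of KO over WT untreated B cells for 14 gene lists (members measured in brackets), with all 19 KO barcodes, without the 6 Ighg3-led ones and without those 6 and 3 more, dotted lines marking the medians of all genes. The interferon-stimulated list stays at -1.01 or below in all 3, whereas the cell cycle list stands at 2.04 with all barcodes and at -0.71 without the 9.

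Signalling genes downstream of the B cell receptor differed little as a list, with a median of -0.24 over 22 members and 1 at least 2-fold lower, a share below the 7.00% of all genes. That gene was Dok3, an adaptor that dampens the receptor signal, at 18.8 CPM in KO and 135 CPM in WT (7.16-fold lower, 2.36 to 35.5) from 3 KO UMIs, and at 44.4 CPM in KO without the 9 barcodes. Early activation genes had a median of 0.32 over 20 members. Nfkbia and Tnfaip3, feedback inhibitors of NF-kB, were 3.35-fold (2.78 to 4.03) and 3.25-fold higher in KO (2.46 to 4.29), and their log2 ratios without the 9 barcodes were 0.96 and 1.72. Jun was 1.91-fold lower and Egr3 3.17-fold lower, so members of this list differed in both directions. Of genes in the survival list, Bcl2l11, which encodes the death factor BIM, was 2.65-fold higher in KO (1.43 to 4.84), with a log2 ratio of 1.42 that was 2.27 without the 9 barcodes. Ltb, a cytokine chain that maintains lymphoid tissue, was 2.62-fold lower at 182 CPM in KO against 477 CPM in WT, and was at 0 in the Ighg3-led cells. Ly86, a partner of the receptor CD180, was 2.81-fold lower, while Cd180 stood at 144 CPM in KO and 124 CPM in WT. The costimulatory ligand gene Icosl was 4.05-fold lower (1.30 to 20.4) from 3 KO UMIs. Without the 9 barcodes the log2 ratios were -0.40 for Ltb, -0.44 for Ly86, 1.28 for Cd180 and -0.57 for Icosl.

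Outside the lists some of the extreme genes rested on single cells and others were spread over many. Slpi, a protease inhibitor, was at 0 in KO against 360 UMIs in WT, of which 354 came from 1 cell. Wdfy1, Kin, Cnr2 and Borcs8 were at 0 in KO against 31, 24, 22 and 21 UMIs in 22, 17, 18 and 15 WT cells. Cnr2 encodes the cannabinoid receptor CB2. Ms4a6c and Prg2 were also at 0 in KO, with 26 UMIs in 10 and 25 UMIs in 2 WT cells. Ly6c2, listed with monocyte genes, was at 0 in KO against 174 UMIs in 20 WT cells. At the high end, Ccl17, Apol7c and Clu were each found in 1 KO barcode, and single KO barcodes held 20 of the 22 Tnfrsf9 and 53 of the 62 Cxcl2 UMIs, while Cdca8, a mitosis gene, was found in 7 KO cells and 1 WT cell. Mid1, a sex-linked gene named after its values were seen, had 108 UMIs in 19 of 19 KO B cells against 2 UMIs in 2 of 77 WT B cells. It stood at 677 CPM in KO and 3.54 CPM in WT B cells, and at 398 CPM in KO and 18.3 CPM in WT in all other barcodes, so the difference was not limited to B cells. Arhgap6, also named after its values were seen, had 36 UMIs in 11 KO B cells and 9 UMIs in 7 WT B cells, a log2 ratio of 3.76, and stood at 48.6 CPM in KO and 2.26 CPM in WT in all other barcodes.

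The 7 B cells of the anti-PD1 libraries allow only a description. Both KO cells were rich in Jchain. They held 4516 and 3199 Ighm, 3425 and 1902 Igkc and 814 and 779 Jchain UMIs, and 0 of Pax5 and Ebf1. Their leading kappa variable genes differed, Igkv12-41 with 1220 UMIs in one and Igkv1-110 with 1170 UMIs in the other. Of the 5 WT cells, 1 was also rich in Jchain, with 2190 Ighm and 1606 Jchain UMIs and Ighv1-80 and Igkv4-55 leading at 3732 and 7772 UMIs. Another WT cell held 27414 UMIs with 32 of Ebf1, 13 of Pax5 and 5 of Mki67, and the other 3 held 2938, 3550 and 1539 UMIs. Interferon-stimulated UMIs were 0.597 and 0.246% of all UMIs in the 2 KO cells, and 0.953, 1.16, 1.03, 0.479 and 1.56% in the 5 WT cells. Immunoglobulin genes took up a larger part of all UMIs in the KO than in the WT anti-PD1 B cells. That lowers the share left for other genes in KO, so these shares do not compare the genotypes. The part of this in the lower KO shares was not tested. Ifi27l2a was at 0 in both KO cells and at 3, 24, 46, 0 and 0 UMIs in the WT cells. Variable segments made up 15.9% of immunoglobulin UMIs in KO and 79.3% in WT anti-PD1 B cells, against 0.402% in KO and 0.610% in WT untreated B cells. The labels name the same 5′ kit for all 4 libraries, and these shares differ all the same, so levels are not compared between treated and untreated B cells.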

How the data were processed

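The authors deposited a matrix of raw UMI counts per gene and barcode for each of the 4 libraries. Per the file headers, the counts came from Cell Ranger 3.1.0 (untreated) and 7.2.0 (anti-PD1), and the submitters' processing notes name mm10 and GRCm38. Doublet removal is not stated. Counts were summed over the B cells of each library, scaled to CPM of the sum, and compared as log2 ratios with a pseudocount of 0.5 counts, for genes reaching 20 UMIs over both sets. A call is a 2-fold difference. Single genes carry exact conditional Poisson intervals, shares exact Clopper-Pearson intervals (95%). The members and gene lists were chosen with earlier results of these data known. Any list member could be named, beside the 6 highest and 6 lowest other genes, and receptor variable segments, mitochondrial, ribosomal, hemoglobin and sex-linked genes were not named by that rule (Mid1 and Arhgap6 were chosen after their values were seen). T and myeloid sets held 610 and 1202 KO and 1302 and 1753 WT untreated barcodes. Libraries held 32410040 UMIs (untreated KO), 48270410 (untreated WT), 54559749 (KO anti-PD1) and 94732545 (WT anti-PD1). The scripts were tested on simulated data. Alternatives used TMM factors (edgeR 4.0.16), DESeq2 1.42.0 size factors and Scrublet in scanpy 1.11.5. Python 3.11.15 and R 4.3.3 were used. Some list members are not reported here.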

Additional observations from a re-analysis of the deposited data

How the results depend on the processing

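No paired analysis was possible because each group has 1 library and the labels carry no replicate numbers, and for the same reason no library could be left out. The interferon-stimulated median stayed below 0 under every alternative run, from -1.87 to -0.54, and so did the MHC class I median, from -0.84 to -0.21. Keeping barcodes with at least 500 genes and at most 5% mitochondrial UMIs left 3 KO and 30 WT B cells and gave a log2 share ratio of -2.11, an MHC class II median of -3.58 and an Ighd difference of -33.3 points. Without thinning the Ighd difference was -33.4 points. The settings without the 6 Ighg3-led barcodes, the 3 others or both were chosen after seeing the data. Without both, the share ratio was -2.04 and the MHC class II median reversed to 0.046, and without the 3 it was -0.21. Without those 9 and any barcode of either genotype with 20 or more UMIs of another cell type's list, also chosen after seeing the data, the share ratio was -2.20, the MHC class I median -0.84 and the MHC class II median -0.12. The class II median was -0.32 without B cells over 2 times the median depth and -0.33 with cells thinned to 1000 UMIs. Counts of genes at least 2-fold lower and higher, 316 and 626 as reported, were 57 and 57 after thinning, 568 and 1184 at a minimum of 10 UMIs, 104 and 201 at a minimum of 50, and 1076 and 3044 with none, where fewer or more genes enter by construction. The lower count was 150 with a pseudocount of 2. The higher count was 408 with no UMI of any excluded gene and 339 without the deep cells. The causes were not tested. Scrublet's automatic threshold called 0 KO and 2 WT barcodes, so it did not work here. Removing the top scores took out 0 KO and 6 WT B cells. With 19 KO cells and 159563 UMIs, genes under about 20 UMIs could not be compared.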

Other observations

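Some members of the lists differed among the 10 remaining KO B cells themselves. Ighd, Fcer2a and Cr2 were found together in 2 of the 10, with 8, 6 and 3 UMIs in one and 3, 4 and 1 UMIs in the other. The cell with the highest interferon-stimulated share, at 1.06%, also held the most Ighm (150 UMIs), the most lambda (60 UMIs) and 9 of the 10 Ifi27l2a UMIs of the KO set. It also held 29 UMIs of the monocyte and macrophage list, the highest among the 10, and the part of this in its interferon-stimulated share was not tested.

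Among WT B cells, 1 lambda cell with 51 lambda and 25 kappa UMIs held 104 UMIs of the cell cycle list, 6 of them Mki67. The 2 WT cells led by Ighg2b with 27 and 54 kappa UMIs had 5.11 and 2.62% interferon-stimulated UMIs, both above the highest KO cell.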
